A study of Mus musculus with 6 samples.

Results

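The genes of the cytosolic ribosomal proteins were described across 6 libraries of cultured fetal mouse ovaries. Members were taken by name: symbols that begin with Rpl or Rps and a number, the stalk genes Rplp0 to Rplp2, and Rpsa, without the Rps6k kinases and without pseudogenes. This gave 84 of the 21898 genes in the table. Of these, 77 were canonical genes, 46 of the large and 31 of the small subunit, and 7 were paralogs: Rpl3l, Rpl7l1, Rpl10l, Rpl22l1, Rpl36al, Rpl39l and Rps27l.

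Each ribosome is built from ribosomal RNA and a single copy of nearly every ribosomal protein, so cells make these proteins in matched amounts. Their mRNAs are abundant, mostly short, and typically start with a run of pyrimidines, the terminal oligopyrimidine (TOP) tract, through which mTORC1 signalling controls their translation as a group. A few of the proteins have paralogs that replace them in particular tissues, such as striated muscle or the male germ line in mice.

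Wild-type ovaries were taken at 14.5 days post coitum, when female germ cells enter meiosis, and were cultured without serum in DMEM/F12 for 3 days. The treated group received 15 µM NAPQI, the reactive metabolite of acetaminophen, and controls were given an equal amount of ethyl acetate alone. There were 3 libraries of total RNA a group, with 13879347 to 17258609 counted reads each. The labels do not tell whether a group's libraries are from separate cultures or animals, and the p-values therefore rest on a spread that could be technical.

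Markers of germ cells (Ddx4, Dazl, Sycp3 and Mael) summed to 883 to 1171 CPM and those of pregranulosa cells (Foxl2, Wnt4, Fst and Kitl) to 1059 to 1354 CPM, against 11.3 to 21.5 CPM for the testis markers Sox9, Amh and Insl3. CPM are counts scaled to library size: marker sums use each library's counted reads alone, and all other CPM given here use sizes adjusted by TMM. The markers are those of an ovary with its germ cells. In such bulk libraries, fewer cells of a type and less RNA per cell cannot be told apart.

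The coding sequences of 2 paralogs and their parents are printed because they show that the mRNAs of a pair differ at many bases while the proteins are nearly alike. Capitals mark the bases that differ within a pair, from the coding sequences of GENCODE M21 (GRCm38). Rpl39l is on chromosome 16 and Rpl39 on chromosome X.
Rpl39l: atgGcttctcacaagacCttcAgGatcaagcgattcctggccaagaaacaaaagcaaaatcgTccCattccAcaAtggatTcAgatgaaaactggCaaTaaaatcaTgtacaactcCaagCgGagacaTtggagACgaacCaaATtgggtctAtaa
Rpl39: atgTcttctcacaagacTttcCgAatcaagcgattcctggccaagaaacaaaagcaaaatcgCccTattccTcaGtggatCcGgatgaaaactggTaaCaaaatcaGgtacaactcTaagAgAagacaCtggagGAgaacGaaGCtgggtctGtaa
Rps27l: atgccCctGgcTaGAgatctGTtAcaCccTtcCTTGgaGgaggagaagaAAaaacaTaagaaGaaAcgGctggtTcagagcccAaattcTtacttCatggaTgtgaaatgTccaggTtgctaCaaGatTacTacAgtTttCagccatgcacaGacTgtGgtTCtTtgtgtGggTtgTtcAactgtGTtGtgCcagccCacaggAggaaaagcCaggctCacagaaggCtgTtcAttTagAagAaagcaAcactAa
Rps27: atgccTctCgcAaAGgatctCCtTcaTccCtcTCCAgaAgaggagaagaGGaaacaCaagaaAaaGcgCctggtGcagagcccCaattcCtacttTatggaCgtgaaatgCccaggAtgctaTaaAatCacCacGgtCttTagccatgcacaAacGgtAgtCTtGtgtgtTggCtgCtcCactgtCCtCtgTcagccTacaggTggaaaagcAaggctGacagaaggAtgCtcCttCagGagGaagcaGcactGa
Rpl39l and Rpl39 differed at 23 of 156 bases, yet 94.1% of the aligned residues were identical. Rps27l and Rps27, on chromosomes 9 and 3, differed at 61 of 255 bases, with 96.4% of residues identical. Rpl36al had the same protein as Rpl36a (100% of residues, 87.9% of bases), and Rpl10l shared 98.6% of residues with Rpl10. The remaining paralogs were further from their parents, at 76.0% of residues for Rpl3l, 70.3% for Rpl22l1 and 40.7% for Rpl7l1.

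Transcription start windows are shown because TOP tracts are the shared feature by which canonical genes are known to be regulated. Each runs from 20 bases before the annotated start to 20 bases from it (RefSeq, GRCm38.p6). Capitals mark a run of at least 8 bases made only of C and T, read on the transcribed strand. The run had to lie at least partly within 10 bases of the start, on either side.
Rpl4, chr9:64173367-64173406, plus strand: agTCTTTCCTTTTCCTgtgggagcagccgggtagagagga
Rps27, chr3:90213629-90213668, minus strand: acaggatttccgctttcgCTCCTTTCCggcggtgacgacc
Rps27l, chr9:66946066-66946105, plus strand: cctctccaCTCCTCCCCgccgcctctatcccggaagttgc
Rpl39, chrX:37085203-37085242, minus strand: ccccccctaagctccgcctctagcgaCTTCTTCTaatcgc
Rpl39l, chr16:10170208-10170247, plus strand: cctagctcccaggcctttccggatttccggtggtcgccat
Rpl22l1, chr3:28805488-28805527, plus strand: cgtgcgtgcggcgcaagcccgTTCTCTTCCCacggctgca
Rpl10l, chr12:66284382-66284421, minus strand: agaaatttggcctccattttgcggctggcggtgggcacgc
A run of that kind was present in 27 of the 57 canonical genes with a start in the table (47.4%), against 15.8% of 27025 genes. Among the 7 paralogs it was found in Rps27l and Rpl22l1. The canonical windows printed are examples that hold a run. In the windows printed, the runs of Rpl4 and Rps27l ended before the annotated start and those of Rpl39 and Rpl22l1 began after it. A TOP tract begins at the first transcribed base, so a run of this kind is not by itself a TOP tract. Rpl39l and Rpl10l held no such run in these windows, nor did Rpl10, the parent of Rpl10l, which says nothing about other start sites.

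Canonical ribosomal protein genes took 3.62%, 4.65% and 5.002% of the counted reads in control replicates 1 to 3, and 3.90%, 3.91% and 4.55% in NAPQI replicates 1 to 3. The lowest and the highest library were both controls, and the NAPQI libraries lay between them. The group means were 4.43% ± 0.718 in controls and 4.12% ± 0.371 with NAPQI (SD, n = 3), a difference smaller than the spread of the controls. That difference of -0.306 percentage points became -0.708 when control replicate 1 was left out, -0.0179 when control replicate 3 was, and -0.520 when NAPQI replicate 3 was. With any other single library left out it lay between -0.200 and -0.192. Genes of both subunits followed the same order: control replicate 1 had the lowest share of large subunit reads (1.998%) and of small subunit reads (1.62%), and control replicate 3 the highest of each (2.72% and 2.28%).

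**Figure D1:**
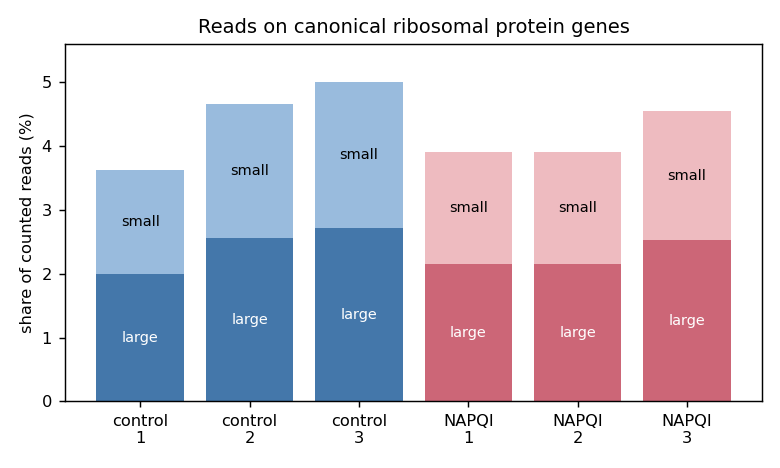
Share of counted reads (%) on the 77 canonical ribosomal protein genes in each library, split into the large subunit (dark) and the small subunit (light); blue bars are controls and red bars NAPQI. Control replicate 1 (3.62%) is the lowest bar and control replicate 3 (5.002%) the highest.

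Gene by gene the same 2 control libraries set the extremes. In CPM, 57 of the 77 canonical genes were lowest in control replicate 1 and 53 were highest in control replicate 3, while 19 were highest in NAPQI replicate 3. The median deviation of a canonical gene from its own mean over the libraries was -0.23, 0.13 and 0.27 on the log2 scale in control replicates 1 to 3, and -0.12, -0.14 and 0.07 in NAPQI replicates 1 to 3. Erythroid markers also stood apart in control replicate 3, where Hba-a1, Hba-a2, Hbb-bs, Hbb-bt and Alas2 summed to 191 CPM (on counted reads alone) against 18.1 to 62.7 CPM in the other libraries, with Hba-a2 at 0 in every library. Their part in the level of the ribosomal protein genes was not tested.

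NAPQI libraries were compared with controls to ask whether the treatment altered these mRNAs. No ribosomal protein gene passed: 0 of 84 had an adjusted p under 0.05 in edgeR's quasi-likelihood test, against 0.0814% of the 14736 genes tested (12 genes). At an unadjusted p under 0.05 there was 1, Rpl26, which was lower, against 9.24% of all genes (5.03% lower). DESeq2 called 0 members, against 0.509% of all genes, with 2 at an unadjusted p under 0.05 against 8.86%. Under limma-voom 0 were called, against 0.00679%, with 1 at an unadjusted p under 0.05 against 9.03%. The authors' deposited table lists 0 members with an adjusted p under 0.05, against 0.124% of its genes, and 0 with an unadjusted one, against 4.63%.

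Small negative differences were common to most members. The log2 fold change was below 0 for 68 of 77 canonical genes and 5 of 7 paralogs, against 52.6% of all genes tested, and its median was -0.12 over canonical genes (-0.11 large subunit, -0.14 small subunit), -0.04 over paralogs and -0.01 over all genes. Members share the library shifts described above, so their signs are not separate observations. Leaving out control replicate 1 moved the canonical median to -0.23 with 74 of 77 below 0 (50.7% of all genes), and leaving out control replicate 3 moved it to -0.02 with 44 of 77 below 0 (51.7% of all genes). Without NAPQI replicate 3 it was -0.20, and without NAPQI replicate 2 it was -0.07. The paralog median ran from -0.16 without NAPQI replicate 3 to 0.08 without NAPQI replicate 1.

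The library chosen for removal also decided how many members passed the unadjusted threshold. Without control replicate 1, 41 of 84 members had an unadjusted p under 0.05 and all 41 were lower with NAPQI, against 6.49% of all genes lower, and 1 passed the adjusted threshold, Rpl35a, against 0.121% of all genes. Rpl35a, a large subunit protein mutated in human Diamond-Blackfan anaemia, stood at 80.7, 204 and 205 CPM in controls and at 129, 125 and 116 CPM with NAPQI. Its lowest value was that of control replicate 1, and with all libraries its log2 fold change was -0.40 ± 0.250 (SE, edgeR adjusted p = 0.627). Rpl35a is named here after its values were seen.

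**Figure D2:**
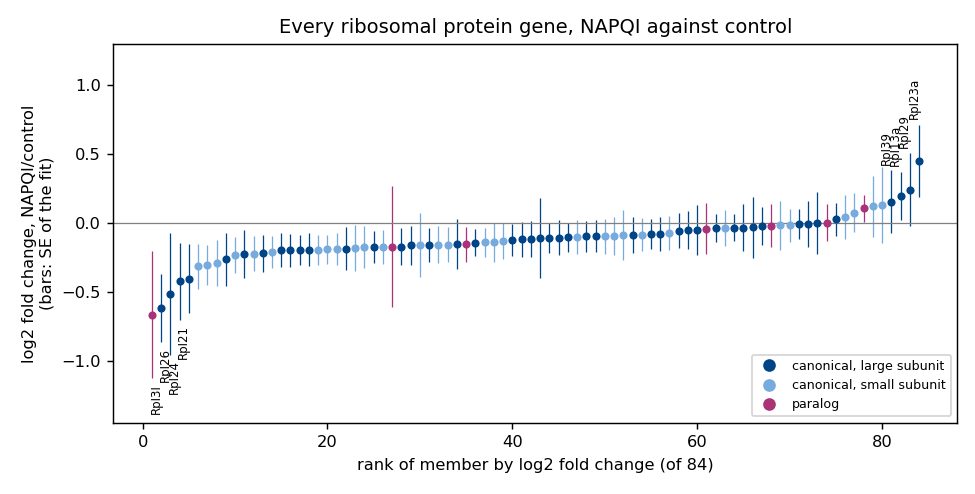
Log2 fold change of NAPQI over control for each of the 84 members, ranked, with the SE of the fit as bars; dark blue points are canonical large subunit genes, light blue points small subunit genes and purple points paralogs. The quartiles are -0.19 and -0.04, Rpl3l, Rpl26 and Rpl24 have the lowest values and Rpl23a the highest.

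Rpl26, a protein at the exit of the polypeptide tunnel that also binds p53 mRNA in human cells, had the lowest p. It stood at 152, 277 and 173 CPM in controls and at 107, 95.4 and 191 CPM with NAPQI. NAPQI replicate 3 was above control replicates 1 and 3, so the groups overlapped. Its log2 fold change was -0.62 ± 0.248 (SE; unadjusted p = 0.0278, edgeR adjusted p = 0.476), and leaving out single libraries gave -0.99 to -0.30.

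Rpl15 was the only member whose groups did not overlap, at 451, 452 and 527 CPM in controls and 426, 430 and 441 CPM with NAPQI. Such a gap was present, in the lower direction, in 7.13% of all genes, and 1 of 84 members is below that share. In the higher direction there were 0 members, against 7.26%. The gap was narrow, with a log2 fold change of -0.14 ± 0.0948 (SE, edgeR adjusted p = 0.656). Rpl15, a large subunit protein, was likewise named after its values were seen.

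Members that line the polypeptide exit tunnel (Rpl4, Rpl17, Rpl19, Rpl23a, Rpl26, Rpl31, Rpl35 and Rpl39) held both the lowest and the highest canonical fold change. Of these, 0 of 8 were called and 6 were below 0. Over all genes tested 0.0814% were called and 52.6% were below 0. With so few genes called at all, 0 called in this or another short list is no result about its genes. Rpl23a, a docking site for chaperones at the tunnel exit, stood at 9.35, 12.4 and 12.6 CPM in controls and 11.0, 12.1 and 23.8 CPM with NAPQI. The value of NAPQI replicate 3 was the only high one. Its log2 fold change was 0.45 ± 0.264 (SE, edgeR adjusted p = 0.611) and ran from 0.02 to 0.66 when single libraries were left out.

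Spread between libraries was widest for Rpl26, Rpl35 and Rpl21 among the canonical genes. Rpl35, another tunnel exit protein, stood at 20.1, 42.5 and 43.4 CPM in controls and 26.3, 23.0 and 48.9 CPM with NAPQI, and Rpl21, a large subunit protein, at 12.7, 23.6 and 34.2 CPM and then 14.8, 15.5 and 22.2 CPM. Both were lowest in control replicate 1, and their log2 fold changes were -0.11 for Rpl35 (edgeR adjusted p = 0.930) and -0.42 for Rpl21 (0.649). With single libraries left out, that of Rpl35 ran from -0.51 to 0.0986 and that of Rpl21 from -0.71 without control replicate 1 to -0.0570 without control replicate 3. Rpl24, at the lower end with -0.52 ± 0.441 (SE, edgeR adjusted p = 0.729), had only 8 to 21 counts a library. At the upper end, after Rpl23a, Rpl29 was at 0.24 ± 0.264 and Rpl13a at 0.20 ± 0.173 (SE, edgeR adjusted p = 0.795 and 0.738).

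In the acidic stalk, which recruits translation factors, Rplp0, Rplp1 and Rplp2 had log2 fold changes of -0.10, -0.12 and -0.16. Of these, 0 of 3 were called (0.0814% of all genes). The 5S particle proteins Rpl5 and Rpl11, which bind Mdm2 when ribosome assembly is disturbed, were at -0.01 and -0.11, with 0 called (0.0814% of all genes). Rpl5 stood at 774, 929 and 984 CPM in controls and 853, 877 and 944 CPM with NAPQI, wholly within the range of the controls.

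Of the small subunit proteins of the mRNA channel and decoding face, Rps2 was at -0.31 and Rps15 at -0.30. Rps3 was at -0.09 and Rps23 at 0.04, and 0 of 4 were called (0.0814% of all genes). Rps15 stood at 733, 1043 and 1194 CPM in controls and 839, 746 and 819 CPM with NAPQI. Control replicate 1 was below every NAPQI library and the other controls were above them (edgeR adjusted p = 0.549), and its log2 fold change was -0.47 without control replicate 1 and -0.15 without control replicate 3. Of 14 genes mutated in human Diamond-Blackfan anaemia, 0 were called and 11 were below 0. Of the 4 X-linked genes, Rps4x, Rpl10, Rpl36a and Rpl39, 0 were called and 3 were below 0. Over all genes tested 0.0814% were called and 52.6% were below 0, and 68 of 77 canonical genes were below 0.

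The paralogs were present at very different levels. By mean FPKM (counts scaled to gene length and library size, as deposited; SD over 6 libraries) the order was Rps27l at 69.2 ± 9.81, Rpl10l at 55.9 ± 7.18, Rpl7l1 at 35.8 ± 3.37, Rpl39l at 23.4 ± 4.28, Rpl22l1 at 13.7 ± 2.10, Rpl3l at 0.853 ± 0.392 and Rpl36al at 0.822 ± 0.208. The last pair did not differ beyond its spread, while the other neighbours in that order were apart by more than the larger SD of the pair. That order depends on the length used: with FPKM computed instead on the length of the GENCODE M21 mRNA, chosen after the values were seen, Rpl10l stood at 55.9 ± 7.18, Rpl22l1 at 49.2 ± 7.55 and Rpl7l1 at 48.0 ± 4.51, of which neighbours did not differ beyond their spread, and Rpl36al at 2.11 ± 0.534 was above Rpl3l at 1.02 ± 0.469. Rps27l stayed the highest on that scale, at 113 ± 16.0. Every paralog was below its parent on both scales, from 3.44 times for Rps27l to 215 times for Rpl36al as deposited, and from 6.36 times for Rps27l to 383 times for Rpl3l on mRNA length. Of the parents' 50-base stretches, other genes held 98.65% for Rps27, 92.1% for Rpl10, 85.6% for Rpl3 and 85.5% for Rpl36a. The share was 53.3% for Rpl7, 24.5% for Rpl22 and 16.5% for Rpl39, and among paralogs at most 57.3%, for Rpl22l1. How reads that map to several genes were counted is not described, so ratios to parents, here and below, are of counts as assigned. Of the exon bases of Rpl36al, 63.1% lay inside another gene in GENCODE M21, and the overlapping row Gm49383 was listed at 0 in every library.

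Rpl10l (chr12:66330153-66331175, GRCm39) and Rpl39l (chr16:9988090-9992775) are best known from the mouse male germ line, where Rpl10l stands in for the X-linked Rpl10 in spermatocytes. In these ovaries Rpl10l had 813, 1146 and 905 counts in controls and 842, 878 and 796 with NAPQI. Rpl39l had 287, 300 and 340 counts in controls and 262, 289 and 334 with NAPQI. Both were thus counted in every library, and no stretch of 50 bases of the Rpl39l mRNA was shared with another annotated gene, against 7.60% of those of Rpl10l. Rpl3l, the striated muscle form of Rpl3, had 14 to 35 counts a library, and the striated muscle markers summed to 16.7 to 24.2 CPM (on counted reads alone). Ttn was the largest part of that sum, at 6.67 to 14.1 CPM. Mylpf stood at 3.10 to 5.79 CPM, Myh6 at 1.51 to 4.42 CPM and Tnnt3 at 1.45 to 3.96 CPM. Ckm, Acta1, Actc1, Myh3 and Myh7 were each at 0.685 CPM or below in every library.

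Ratios within a library do not depend on library scaling, so each paralog was set against its parent. Rps27l, a p53 target, had 265, 227 and 199 counts per 1000 of Rps27 in controls and 246, 232 and 216 with NAPQI. Rpl7l1, whose yeast relative acts in ribosome assembly, had 126, 132 and 105 per 1000 of Rpl7 in controls and 142, 148 and 121 with NAPQI. Rpl39l had 157, 105 and 150 per 1000 of Rpl39 in controls and 127, 149 and 96.4 with NAPQI. In every pair the groups overlapped. The difference of the mean log2 ratio was 0.01 for Rps27l, 0.19 for Rpl7l1, -0.04 for Rpl10l, -0.08 for Rpl22l1, which Rpl22 is known to repress in mice, -0.15 for Rpl39l and -0.51 for Rpl3l. With single libraries left out it ran from -0.88 to -0.20 for Rpl3l and from 0.0880 to 0.27 for Rpl7l1.

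None of the 6 pairs tested passed (two-sided exact permutation test, p = 0.3 to 0.9, each adjusted p = 0.9). With 3 libraries a group the smallest p this test allows is 0.1, so it could not have passed 0.05. Rpl36al was left out of the test because its lowest count was 9. Together the paralogs had 6.88, 6.64 and 5.90 counts per 1000 canonical counts in controls and 6.89, 7.33 and 7.04 with NAPQI. The lowest NAPQI value was just above the highest control value (6.889 against 6.879), which was not tested. Rpl7l1 alone held 1622 to 2326 of the 4093 to 5334 paralog counts in controls. With NAPQI it held 1916 to 2113 of 4316 to 4572, so this sum leans largely on that gene. Among single genes, a gap in the higher direction was present in 7.26% of all those tested.

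**Figure D3:**
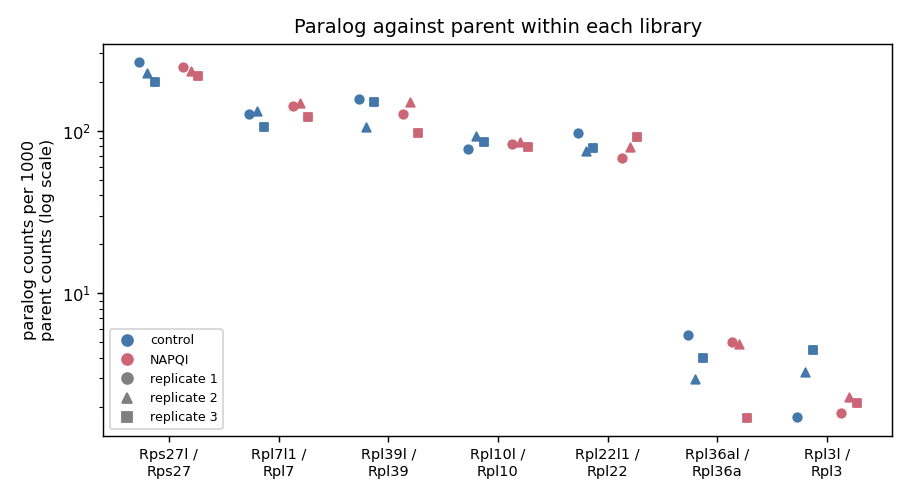
Paralog counts per 1000 counts of the parent gene (log scale) in each library; blue is control, red is NAPQI, and the marker shape gives the replicate number. The pairs range from 265 per 1000 for Rps27l to 5.51 per 1000 or less for Rpl36al and Rpl3l, and the groups overlap in each pair.

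Canonical genes did not have equal levels, although nearly every one of their proteins is used as a single copy in each ribosome. Their median FPKM was 238, with quartiles of 142 and 427, and the range ran from 0.958 for Rpl24 to 1487 for Rplp1. After Rplp1, a stalk protein, came Rps15 at 1418, Rps3a1 at 1061, Rpl8, a protein near the peptidyl transferase centre, at 865 and Rpl19 at 762. At the low end, Rps10 was at 2.86, Rpl21 at 6.005, Rpl34 at 7.01 and Rpl13a at 7.43. Under 20% of the median lay 11 genes, from Rpl24 to Rpl35a at 40.5.

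The annotation sets several of these low genes apart. In GENCODE M21, 5 of the 11 had at least 50% of their exon bases inside another gene, against 1 of the other 66, and 2 shared a 50-base stretch with at least 80 other genes, against 2 of 66. These limits were chosen after the values were seen. Examples are Rpl24 with 71.5% of exon bases in another gene and Rpl21 with a stretch in 82 others, whereas Rpl34 had neither. The rows Gm45713 and Gm49804, which overlap Rpl13a and Rps10 on the same strand, were listed at 0 in every library. Rows that overlap a member on the opposite strand did hold counts: Arpc5l over Rpl35 had 1965 to 2463, Tlcd1 over Rpl23a 330 to 449 and Vps52 over Rps18 1020 to 1619. These rows were found by whole gene span. In GENCODE M21, 68.3% of the exon bases of Rpl35 and 55.4% of those of Rpl23a lay inside another gene, but 0% of those of Rps18. Whether the counting used strand is not described, so reads from exon bases that a pair shares cannot be told apart. The share of an mRNA found elsewhere did not track level (Spearman rho = 0.061 across 77 genes, which are not independent): its median was 47.8% in the 11 and 48.8% in the rest. The counting of reads that map to several genes is not described in the sources, so the low values are counts assigned, and the part of the counting in them was not tested. In the same table the pseudogene row Rps18-ps5 had 1002 to 1466 counts, above the 656 to 788 of Rps18.

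**Figure D4:**
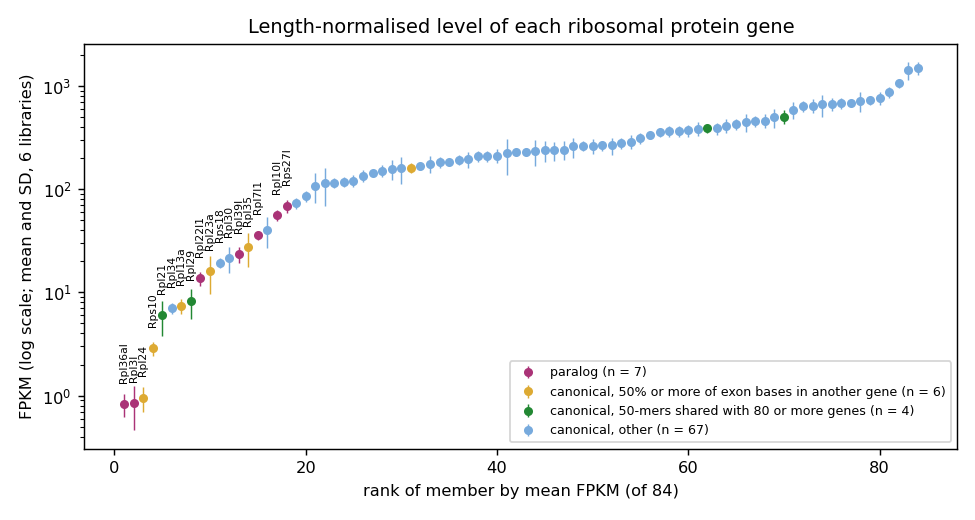
Mean FPKM (log scale; bars are SD over 6 libraries) of the 84 members by rank; colours mark paralogs (purple), canonical genes with 50% or more of exon bases inside another gene (yellow), those sharing 50-base stretches with 80 or more genes (green) and the others (blue). Rpl24 (0.958) and Rplp1 (1487) are the lowest and highest canonical genes.

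Libraries also differed in which canonical genes moved. The 25 with the shortest coding sequences (78 to 402 bases) had median deviations of -0.33, 0.14 and 0.31 in control replicates 1 to 3 and -0.18, -0.22 and 0.24 in NAPQI replicates 1 to 3 (log2). The 26 with the longest (579 to 1260 bases) had -0.19, 0.10 and 0.24, then -0.08, -0.10 and 0.04. Short genes swung further in every library, most of all in NAPQI replicate 3. Across the 77 genes, Spearman's rho of deviation with coding length was 0.580, -0.212 and -0.308 in controls and 0.439, 0.640 and -0.518 with NAPQI, with a different sign within each group. Over 14689 genes of all kinds it was 0.178, -0.113 and -0.241, then 0.121, 0.136 and -0.003.

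Rps29, a short small subunit protein with 171 coding bases, shows this in single values. It stood at 101, 162 and 179 CPM in controls and at 118, 111 and 255 CPM with NAPQI. NAPQI replicate 3 was the highest library and the other NAPQI libraries were among the lowest, so the log2 fold change of 0.13 ± 0.274 (SE, edgeR adjusted p = 0.907) averages unlike libraries. Rpl4, with 1260 coding bases, moved less, at 1208, 1488 and 1556 CPM in controls and 1320, 1297 and 1408 CPM with NAPQI. These lengths and examples were chosen after the values were seen. Removing each library's trend on mRNA length left a canonical median log2 fold change of -0.02, with 43 of 77 below 0. The median over all genes was then -0.0015. Before that step the median was -0.09 in the shortest 25 (21 below 0), -0.15 in the middle 26 (22) and -0.11 in the longest 26 (25). Spearman's rho of fold change with coding length was -0.151 across the 77 genes. The part of length in the negative differences was not tested.

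**Figure D5:**
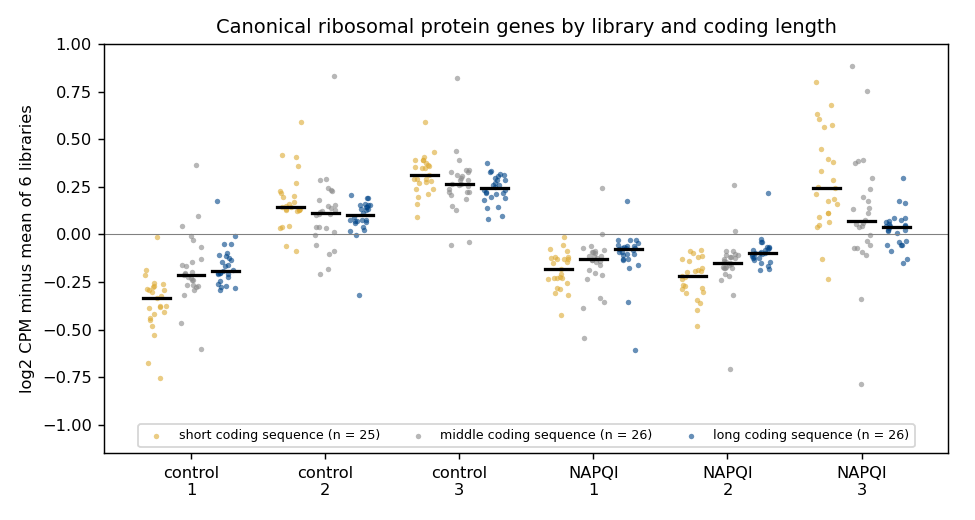
Deviation of each canonical gene from its mean over 6 libraries (log2 CPM), by library and by coding length (yellow short, grey middle, blue long); each point is a gene and black lines are medians. In NAPQI replicate 3 the short genes have a median of 0.24 and the long genes 0.04.

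Other mRNAs listed as having TOP tracts were mostly those of translation factors. A run by the start-window rule above was held by 4 of the 10 with a start window (40.0%). The log2 fold changes of this list had a median of -0.03. Of the list, 0 of 15 were called (0.0814% of all genes) and 9 were below 0 (52.6% of all genes). Dropping control replicate 1 took this median to -0.11, and dropping NAPQI replicate 3 took it to -0.0565. It was above 0 without control replicate 2 (0.03), control replicate 3 (0.0075), NAPQI replicate 1 (0.0023) or NAPQI replicate 2 (0.0208). With the trend on deposited length removed it was 0.0214, and on mRNA length 0.031. Their median deviations had the same sign as those of canonical genes in each library, from -0.15 in control replicate 1 to 0.10 in control replicate 2. The ribosomal protein fusion gene Fau, which the name rule does not match, was at -0.30 ± 0.134 (SE, edgeR adjusted p = 0.523). The paralog Rps27l, a p53 target, was at 0.00 ± 0.135 (SE, edgeR adjusted p = 0.997). Of 11 other p53 targets listed beside it, 0 were called (0.0814% of all genes). Their median was 0.19, and 7 were above 0, against 6991 of the 14736 genes tested. Among them Eda2r had a log2 fold change of 1.04 ± 0.338 (SE, edgeR adjusted p = 0.397). It was the highest of the list, while Cdkn1a at -0.24, Bax at -0.14, Phlda3 at -0.13 and Mdm2 at -0.08 were below 0.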

How the data were processed

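Total RNA was sequenced from 3 control and 3 NAPQI libraries, grouped by title. The authors deposited unnormalised counts of reads for each gene, per the file headers. The deposited FPKM values were checked to equal counts scaled to the deposited gene length and the library's counted reads. The submitters' processing notes name FastQC 0.11.8, HISAT2 2.0.5, HTSeq 0.9.1 and GRCm39; settings and strandedness are not given in the sources used here. The authors' deposited comparison table holds signal columns (mean normalised counts), a fold change (ratio of means), its log2 value and p-values; only its log2 values and p-values were used. Each table had 1 empty line, not analysed here. The values of some genes are not reported here.

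Counts of all genes were fitted in R 4.3.3 with edgeR 4.0.16: filterByExpr with a minimum count of 10, TMM scaling, the two-sided quasi-likelihood test, Benjamini-Hochberg adjustment over all tested genes and a threshold of 0.05. All 84 members passed the filter. The fit was tested on simulated data, in which unadjusted p-values of unchanged genes were calibrated. When dispersions were set gene by gene, a larger share of its calls was false than the threshold aims at. The simulated counts were drawn separately for each gene, without library shifts shared by members or trends on length. That calibration therefore does not extend to the shifts described above. CPM uses TMM-scaled sizes, except for marker sums, which use plain library sizes. Alternatives were DESeq2 1.42.0, limma-voom (limma 3.58.1), other scalings and filters, the replicate number as a block, length trends and left-out libraries. Sequence sharing, exon overlap and coding sequences come from GENCODE M21 and start windows from RefSeq, by symbol or ID; no coordinates were converted. The members and lists were chosen with earlier results of these data known. The named genes were the paralogs and their parents, the 5 highest and 5 lowest canonical genes by FPKM, those with an unadjusted p under 0.05, and the 3 most extreme in fold change each way and in spread; others are named as examples of a list or of a pattern.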

Additional observations from a re-analysis of the deposited data

How the results depend on the processing

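The number of members called was 0 under every alternative except without control replicate 1, where it was 1, so over the left-out libraries it ran from 0 to 1. The median log2 fold change of canonical genes ran from -0.23 to -0.02 when single libraries were left out and was -0.04 with the trend on deposited length removed. Fitted with the replicate number as a block, it was -0.11 and 0 members were called; the numbers did not pair the libraries (correlations of 0.061, -0.178 and -0.051). The SD of log2 FPKM over canonical genes was 2.05, and 0.97 without the 11 lowest. The median share of a canonical mRNA found in other genes was 33.9% with stretches of 100 bases, chosen later. The number of all genes called ran from 0 to 75, with 75 in DESeq2, 48 without a filter and 12 in the main test. The added alternatives (mRNA length, both replicates 3 left out, without the lowest genes) were chosen after seeing the data.

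None of the 28 genes named by the rule gained or lost a call in 476 alternative results, but only 13 kept their sign in every setting. Log2 fold changes took the other sign as follows: with limma-voom, Rps27l -0.0112; with the replicate number as a block, Rps27l -0.0089; without control and NAPQI replicate 3 together, Rps27l -0.14, Rpl39l 0.0124, Rpl36al 0.21, Rpl22 -0.0060, Rpl39 -0.12, Rps10 0.0425, Rpl29 -0.16; with the trend on deposited length removed, Rpl39l 0.0934, Rpl22l1 0.0569, Rpl36a 0.0661, Rps27 0.10, Rplp1 0.0452, Rpl35 0.0049; with the trend on mRNA length removed, Rpl39l 0.0716, Rpl22l1 0.0706, Rpl3 0.0494, Rpl7 0.0209, Rpl10 0.0062, Rpl36a 0.0798, Rps27 0.0888, Rplp1 0.0034, Rpl35 0.0000; with library size as the only scaling, Rpl22l1 0.0098, Rps27 0.0137. With single libraries left out, these ran: Rpl10 -0.19 to -0.0169, Rpl22 -0.0824 to 0.11, Rpl22l1 -0.22 to 0.11, Rpl29 -0.17 to 0.45, Rpl3 -0.11 to 0.0255, Rpl35 -0.51 to 0.0986, Rpl36a -0.22 to 0.11, Rpl36al -0.35 to 0.0883, Rpl39 -0.22 to 0.33, Rpl39l -0.19 to 0.16, Rpl7 -0.18 to 0.0250, Rplp1 -0.25 to 0.0094, Rps10 -0.34 to -0.0379, Rps27 -0.25 to 0.12, Rps27l -0.16 to 0.0991. The log2 ratios ran Rpl10l over Rpl10 -0.11 to 0.0285, Rpl22l1 over Rpl22 -0.18 to 0.0373, Rpl39l over Rpl39 -0.33 to 0.0236, Rps27l over Rps27 -0.0885 to 0.12. The cause was not tested. Low counts limit Rpl3l, Rpl24 and Rpl36al.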
